A study of Mus musculus with 4 samples.

Results

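Interferon-response spots were picked out of the section of injured tibial muscle taken at day 3 after injury. They were the 182 spots, of 3020 with at least 2000 UMIs (6.03%), in which 6 interferon-stimulated genes (Rsad2, Cmpk2, Ifit1, Ifit2, Ifit3 and Isg15) held the largest share of all UMIs, at or above the 94th percentile of that share. The section held 3029 spots, of which 9 were left out for having fewer than 2000 UMIs, and the series held 10835 spots. The members were thus chosen by the measured levels of these 6 genes, their number was set by the percentile, and their marker levels are given as a description with no test.

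The series comprised 4 spatial transcriptome sections of tibial muscle, 1 per time point, from C57BL/6 mice of 6-8 weeks with the genotype Nse-Bmp4, either uninjured (day 0) or at day 1, 3 or 7 after injury, which the methods give as cardiotoxin injection. All 4 groups carried the transgene, in which a neuronal enolase promoter drives the bone morphogenetic protein Bmp4, and cardiotoxin injury of this strain is used as a model of injury-induced heterotopic ossification, the growth of bone in soft tissue. Per the labels, 3 tibial muscles were mixed for a group. The methods describe this mixing for the single-cell samples of the study and do not mention it for the spatial sections. Which muscle or mouse a spot came from is not given in the sources used here. With 1 section per day there was no replicate, so no comparison below has a test, and each interval is a 95% interval that covers counting error only.

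Each spot is a small area of a frozen muscle section that can hold several cells of different types, and values are summed UMIs scaled to a total of 1000000 UMIs (CPM). Fewer cells of a type and less RNA per cell cannot be told apart in such data. The members held 3632908 UMIs, with 2623 to 64507 per spot and a median of 17734, and the 2838 other spots held 52467046 UMIs, with a median of 15970 per spot. A comparison set of 182 macrophage-rich spots, which were those of the 2838 other spots with the largest share of a monocyte and macrophage gene list, had a median of 30788 UMIs. Genes of adult skeletal muscle made up 31751 CPM in the members and 86926 CPM in the other spots, so the labelled tissue was present in both. The section shared 1801, 2075 and 2311 spot barcodes with the day 0, day 1 and day 7 sections, and 0 of the shared barcodes had equal UMI totals.

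Interferons are secreted proteins that cells make when they sense foreign or misplaced nucleic acids. Type I interferons act through the receptor pair Ifnar1 and Ifnar2 and the kinases Jak1 and Tyk2 to activate a complex of transcription factors that includes Stat2 and Irf9, which binds a short promoter motif and switches on a broad set of antiviral genes. In injured muscle, monocytes that enter from the blood and the macrophages they form are among the cells able to mount this response.

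The markers were unevenly spread among the members themselves. Their score, the summed marker level of a spot, ran from 262 CPM through a median of 403 CPM to 7899 CPM, and 30 members were above 1000 CPM. The lowest and the 10th lowest member had 262.2 and 266.1 CPM, whereas the highest and the 10th highest non-member had 260.7 and 249.5 CPM, so the threshold fell in a continuous range. Among the other spots, 1690 (59.5%) had no marker UMI.

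The marker UMIs behind a single spot were few. The members held 2776 of them and the other spots 2239, so that 6.03% of the spots, with 6.48% of all UMIs, held 55.4% of the marker UMIs. A member had 1 to 169 marker UMIs, with a median of 8. In 35 members the membership rested on 1 to 3 UMIs, whereas 73 members had 10 or more. All 6 markers were seen together in 33 members, at least 3 of them in 141, and 1 marker alone in 15.

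Rsad2, which encodes the radical SAM enzyme viperin, was at 156 CPM (143 to 169) in the members and 5.85 CPM (5.21 to 6.54) in the other spots. Its neighbour Cmpk2, a mitochondrial nucleotide kinase that feeds the same antiviral reaction, was at 55.3 and 2.63 CPM. The Ifit genes encode proteins that bind viral RNA, and Ifit1, Ifit2 and Ifit3 were at 85.9, 56.2 and 153 CPM in the members against 3.51, 2.59 and 7.74 CPM. Isg15, a ubiquitin-like modifier, was the most abundant marker, at 258 CPM (241 to 275) against 20.4 CPM (19.2 to 21.6). It was seen in 87.9% of the members and 24.6% of the other spots, and Rsad2 in 67.6% and 9.58%.

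Thinning every spot to 2000 UMIs left at least 1 marker UMI in 64.6% of the members and 6.95% of the other spots, against 100% and 40.5% before thinning. A choice was also made on a random part of each spot's UMIs and measured on the remaining part. The percentile set its number at 182 spots, of which 135 (74.2%) were among the members. The random part was included in the UMIs that chose the members, so some of this overlap was set by construction. In the part not used for the choice, Rsad2 was at 152 CPM against 7.36 CPM and Isg15 at 227 CPM against 24.1 CPM.

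The DNA upstream of these genes shows the motif that this activated complex binds, which was searched as the letters GAAA, any 2 bases and GAAA again, or, for the other strand, TTTC, any 2 bases and TTTC, with overlapping copies counted. The stretches below come from the RefSeq promoter windows of build GRCm38.p6, which run from 250 bases before to 50 after the start of a gene, and are written on the strand of the gene. They are shown for 4 of the 6 markers and for Cxcl10, the gene with the largest ratio among the listed genes outside the rule that were tested, and capitals mark the motif.
Rsad2: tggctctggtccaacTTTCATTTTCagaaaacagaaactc
Ifit1: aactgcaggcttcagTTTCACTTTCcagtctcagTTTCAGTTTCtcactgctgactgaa
Ifit3: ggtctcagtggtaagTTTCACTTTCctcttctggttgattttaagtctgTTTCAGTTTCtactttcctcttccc
Isg15: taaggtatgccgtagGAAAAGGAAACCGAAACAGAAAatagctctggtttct
Cxcl10: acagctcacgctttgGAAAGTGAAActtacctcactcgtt
These lie at chr12:26456548-26456587 (minus strand) for Rsad2, chr19:34640770-34640828 (plus) for Ifit1, chr19:34583358-34583431 (plus) for Ifit3, chr4:156200860-156200911 (minus) for Isg15 and chr5:92349078-92349117 (minus) for Cxcl10. Isg15 held 3 overlapping copies, Ifit1 and Ifit3 held 2 each, and Rsad2 and Cxcl10 held 1. The letters were not in the windows of Cmpk2 and Ifit2. They were in 1131 of all 32851 windows (3.44%) and in 1079 of 27025 genes (3.99%). Among genes with a window, 23 of 58 in the interferon lists outside the rule held them (39.7%), as did 85 of the 563 genes outside the markers called higher in the members by the rule given below (15.1%) and 11 of the 364 called lower (3.02%), beside 367 of 9511 tested (3.86%). A match of letters is a description and not a site of binding.

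**Figure D1:**
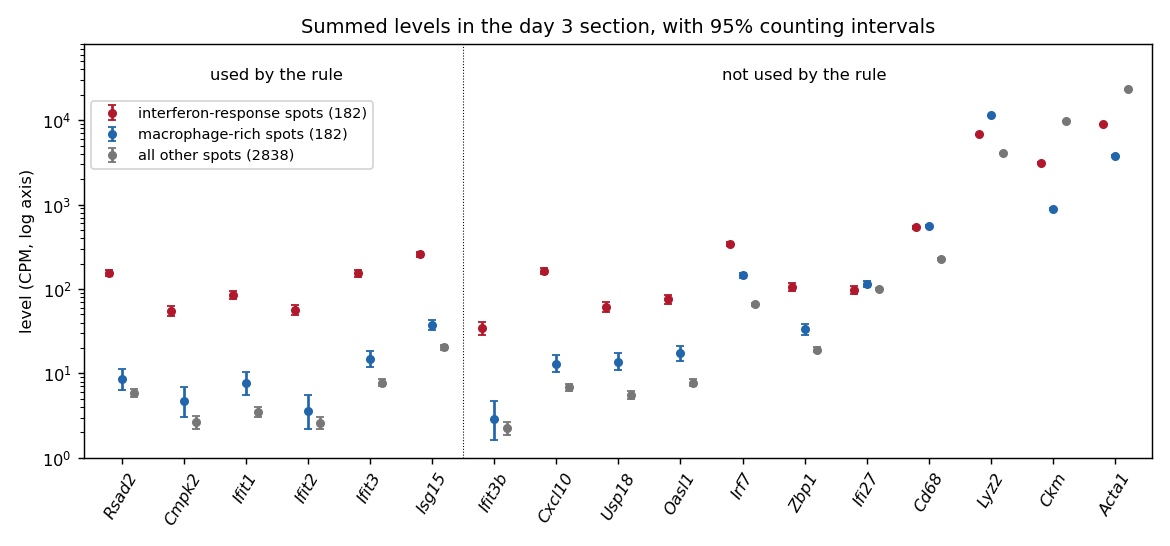
Summed level in CPM on a log axis of 17 genes in the 182 interferon-response spots (red), the 182 macrophage-rich spots (blue) and the 2838 other spots (grey), with bars for the 95% counting interval. The 6 markers on the left chose the red spots; of the genes on the right, Cxcl10, Usp18 and Oasl1 are far above both comparison sets in the red spots, Ifi27 is near the same level in each, and Ckm and Acta1, genes of adult muscle, lie between the 2 comparison sets.

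Interferon-stimulated genes that the rule did not use were also higher in the members. In 5 lists that together hold 74 such genes (antiviral effectors, nucleic acid sensors, transcription factors and feedback genes, the Isg15 conjugation machinery and others), the summed level was 8768 CPM in the members, 3362 CPM in the other spots and 5923 CPM in the macrophage-rich spots. The ratio of the members to the other spots was 2.61 (2.58 to 2.64). A gene was called higher or lower where its ratio was at least 2-fold and its counting interval left out 1, among genes with at least 2 CPM over the spots compared. By that call 62 of 72 genes were higher and 0 lower, beside 6.09% of all 11996 genes outside the rule that were called higher and 4.12% called lower. These genes come from the same spots as the markers, so the counts describe the spots and test nothing.

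The median log2 ratio of the 72 genes was 1.73, and that of all tested genes was 0.30. The ratios of all genes depended on the scale, since adult muscle genes and mitochondrial genes took a smaller part of the members' UMIs. Mitochondrial genes had a median of 4.39% of the UMIs of a member and 13.8% of the UMIs of another spot. On CPM, 731 genes were called higher and 494 lower, and with edgeR's TMM factors or DESeq2's size factors the split was 247 higher and 872 lower. The interferon lists kept a median log2 ratio of 1.39 on both of those scales.

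Spot by spot the ranges overlapped. The interferon lists outside the rule ran from 762 CPM through a median of 7661 CPM to 35871 CPM in the members, from 255 through 2519 to 13980 CPM in the other spots, and from 2944 through 5669 to 11341 CPM in the macrophage-rich spots. Of the 182 members, 174 (95.6%) were above the median of the other spots, 119 (65.4%) above their 94th percentile and 13 (7.14%) above the highest of them. Against the macrophage-rich spots, 131 members (72.0%) were above the median and 12 (6.59%) were below the lowest spot.

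Among the antiviral effectors tested, the largest ratio was that of Ifit3b, a near copy of a marker that is described below, and the next was that of Oasl1, a member of the oligoadenylate synthetase family. Oasl1 was at 75.1 CPM in the members, 7.78 CPM in the other spots and 17.4 CPM in the macrophage-rich spots, a ratio of 9.66 (8.26 to 11.3) to the other spots and of 4.32 (3.41 to 5.50) to the macrophage-rich spots. Of 24 effectors tested, 21 were higher. Oas3, Ifi44 and Isg20, an exonuclease, had ratios of 6.67, 5.98 and 5.04, and Zbp1, a sensor of Z-form nucleic acid that can trigger cell death, was at 106 CPM against 19.1 CPM. The effectors with the highest levels had smaller ratios, with 1403 against 538 CPM for Ifi27l2a, 1274 against 543 CPM for Ifitm3 and 511 against 164 CPM for Bst2, the tetherin gene. Effectors not called included Ifitm2 at a ratio of 1.43 and Ifi27, with 97.2 CPM in the members and 98.9 CPM in the other spots.

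Ifit3b, a near-identical copy of Ifit3, was at 34.4 CPM against 2.25 CPM, a ratio of 15.3 (11.8 to 19.8). Its upstream window at chr19:34607754-34607827 held the same 74 bases as the Ifit3 stretch above. How reads were split between the copies is not given in the sources used here, so Ifit3b is not independent of the markers. Ifit1bl1 fell below the filter, with 57 UMIs in the members (15.7 CPM) and 0.743 CPM in the other spots. Mx1 and Mx2, classical interferon-induced GTPases, and Cxcl11 were not among the gene symbols and were not analysed here.

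The transcription factors and feedback genes of the pathway were higher in 14 of 15 cases. Irf7, which amplifies type I interferon production, was at 344 CPM in the members, 65.7 CPM in the other spots and 146 CPM in the macrophage-rich spots, a ratio of 5.23 (4.90 to 5.58) to the other spots. Usp18, which removes Isg15 from proteins and dampens receptor signalling, had the largest ratio of the list, 10.9 (9.11 to 13.0), with 60.8 CPM against 5.58 CPM. Signalling factors had smaller ratios, with 3.83 for Stat2, 2.16 for Irf9 and 2.31 for Irf1. The exception was Socs3, a feedback inhibitor that answers mainly to the interleukin 6 family of cytokines, at 80.4 CPM against 103 CPM.

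All 4 genes of Isg15 conjugation were higher. These were Herc6, the mouse ligase for Isg15, with a ratio of 5.21, the conjugating enzyme Ube2l6 with 3.59, the activating enzyme Uba7 with 3.01 and Trim25 with 2.22. All 13 of the other interferon-stimulated genes were higher too, among them Phf11b with a ratio of 7.54, Slfn1 with 5.56, Ms4a4c with 225 CPM against 45.3 CPM and Rtp4 with 112 CPM against 24.0 CPM.

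Of 16 nucleic acid sensors and their signalling partners tested, 10 were higher. The cytosolic RNA receptors Ddx58 (RIG-I), Ifih1 (MDA5) and Dhx58 (LGP2) had ratios of 4.76, 4.22 and 4.18, and the DNA-binding Ifi209 had 6.12. The sensors Tlr3, Aim2, Tlr7 and Cgas were nearer to the 2-fold threshold, with 2.41, 2.37, 2.16 and 2.02 (1.33 to 2.98 for Cgas), and against the macrophage-rich spots Aim2 and Tlr7 had ratios of 0.833 and 0.806. The adaptors, the kinase Tbk1 and the factor Irf3, which carry the signal from the sensors, were not called. Their ratios were 1.09 for Mavs, 1.27 for Irf3, 1.33 for Ticam1, 1.43 for Tmem173 (STING), 1.76 for Myd88 and 1.78 (1.46 to 2.15) for Tbk1, so that the intervals of called and uncalled genes overlapped near the threshold.

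The receptors and kinases that receive interferon were called in 1 of 8 cases, with a median log2 ratio of 0.67. Ifnar1 was at 54.0 CPM against 31.7 CPM, Ifnar2 at 108 against 64.1 CPM and Ifngr1, the interferon gamma receptor chain, at 174 against 115 CPM. Jak1 had a ratio of 1.14. The gene called was Il10rb, a chain shared by interleukin 10 and interferon lambda receptors, at 129 against 62.6 CPM, and it was at 165 CPM in the macrophage-rich spots.

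Genes that answer strongly to interferon gamma, many of which type I interferons also induce, were higher in 14 of 15 cases, with 666 CPM in the members, 156 CPM in the other spots and 213 CPM in the macrophage-rich spots. Cxcl10, which attracts T cells and NK cells through Cxcr3, was at 162 CPM (150 to 176) in the members and 6.84 CPM (6.15 to 7.59) in the other spots, a ratio of 23.7 (20.8 to 27.1). Cxcl10 was seen in 44.5% of the members, and 1 spot held 95 of its 590 UMIs there. Without that spot the level in the members was 138 CPM. Cxcl9, a ligand of the same receptor, was at 32.5 CPM against 3.70 CPM. The immunity-related GTPases Ifi47, Iigp1 and Irgm1 had ratios of 6.34, 5.79 and 4.10, and Irgm2 had 1.21 and was not called. Nos2, the inducible nitric oxide synthase of activated macrophages, had 1 UMI in all members.

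Antigen presentation genes were called higher against the other spots, beside 6.09% of all genes. None was called against the macrophage-rich spots, where 3.18% of all genes were called higher. For so few genes a count of 0 is near that share. In the MHC class I pathway 11 of 15 genes were called against the other spots and 0 of 15 against the macrophage-rich spots, and the summed levels were 5810, 2698 and 5707 CPM in the members, the other spots and the macrophage-rich spots. B2m, the shared light chain, was at 2386, 1093 and 2477 CPM in the same order. Against the macrophage-rich spots 13 of the 15 class I genes still had ratios above 1. Their median log2 ratio there was 0.38, beside -0.06 for all genes. The peptide transporter Tap1, the immunoproteasome subunit Psmb9 and the class I transactivator Nlrc5 had the largest ratios to the other spots, 3.35, 3.10 and 3.72. MHC class II genes were called in 5 of 7 cases against the other spots and in 0 of 7 against the macrophage-rich spots. Their summed levels were 3436, 1634 and 2774 CPM in the same order, a ratio of 1.24 (1.21 to 1.27) to the macrophage-rich spots, with 6 of the 7 genes at ratios above 1.

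Monocyte chemoattractants were among the abundant genes of the members. Ccl7 was at 522 CPM against 137 CPM, Ccl2 at 438 against 131 CPM and Ccl12 at 130 against 23.7 CPM, and all of them were also higher than in the macrophage-rich spots, at 153, 167 and 36.1 CPM. Ccl4 and Ccl5, which attract T cells and monocytes, had ratios of 11.5 (9.42 to 14.1) and 6.12 (5.27 to 7.08). The early inflammatory cytokines did not share this pattern, as Il1b was at 35.8 CPM against 20.3 CPM and was not called, and Il6 was lower, at 1.65 CPM against 4.19 CPM. Of the 9 cytokine genes tested, 6 were higher and 1 lower.

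Among all genes with at least 20 CPM over the spots compared, outside the markers, the 15 with the largest ratio to the other spots were Slfn4, Zbp1, Ccl12, Irf7, Ms4a4c, Oasl2, Mndal, Ifi211, Rtp4, Ifi203, Plac8, Rnf213, Trim30a, Irgm1 and Ly6c2. Slfn4, a schlafen family gene of myeloid cells, led them at 111 CPM against 14.2 CPM. Of these, 4 were in none of the lists, namely Slfn4, the Ifi200 family genes Mndal and Ifi211 and the ubiquitin ligase gene Rnf213. The 10 with the smallest ratio were Prkg1, Ptpn3, Perm1, Clu, Fbxl22, Ckmt2, Slc2a4, Gm12224, Ankrd2 and Hspb6, with Prkg1 at 7.16 CPM against 44.0 CPM and the muscle mitochondrial creatine kinase gene Ckmt2 at 138 CPM against 515 CPM.

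The cell types that a spot can hold moved with the interferon genes, and their part in the result was not tested. The monocyte and macrophage list was at 14463 CPM in the members and 8269 CPM in the other spots, from 563 through a median of 12425 to 26312 CPM per member, with a median log2 ratio of 0.81 and 2 of 11 genes called higher (Cd68, at 539 against 227 CPM, and Itgam, at 152 against 67.6 CPM). The macrophage-rich spots were at 21685 CPM for that list. Adult muscle genes were lower in 12 of 13 cases, with a median log2 ratio of -1.51. Both directions depend on the spots compared, since against the macrophage-rich spots the medians were -0.34 for macrophage genes and 1.46 for muscle genes. Those spots were chosen by the same macrophage list, so the sign of its ratio there was largely set by the choice.

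Genes of recruited monocytes had larger ratios to the other spots than most general macrophage genes. Ly6c2, the surface protein of inflammatory monocytes, was at 208 CPM against 50.9 CPM and Plac8 at 179 against 39.6 CPM, and 4 of 5 genes of the list were called. Against the macrophage-rich spots only Plac8 of the 5 was called, at a ratio of 2.56 (2.25 to 2.91). Resident macrophage genes summed to 734 CPM in the members and 429 CPM in the other spots, a ratio of 1.71 (1.64 to 1.78). Of the 5 tested, 3 had ratios above 1, and 1 was called (Folr2). Lyve1 and Cd163, which mark resident macrophages, were at 14.9 and 16.0 CPM against 18.6 and 16.2 CPM in the other spots.

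Lymphocyte genes were sparse, and few passed the filter. NK cell genes summed to 66.1 CPM in the members against 16.4 CPM, with all 3 tested genes of 8 called, and Gzma, the granule protease of NK and cytotoxic T cells, was at 24.5 CPM against 3.93 CPM. T cell genes summed to 40.5 CPM against 8.33 CPM, and the 1 tested gene of 10, the T cell receptor constant gene Trbc2, was at 13.2 CPM against 1.77 CPM. Its level in the other spots was under the filter of 2 CPM, so Trbc2 was tested only because the members were high. Its call against the other spots was thus largely set by the filter. Against the macrophage-rich spots 1 of 5 NK cell genes (Gzma) and 2 of 6 T cell genes (Cd3d and Trbc2) were called. B cell genes summed to 42.4 CPM against 25.4 CPM, with 0 of 2 called. The regulatory T cell factor Foxp3 had 0 UMIs in the members. Neutrophil genes summed to 116 CPM in the members against 62.7 CPM, a ratio of 1.86 (1.67 to 2.06). Of the 6 neutrophil genes tested, 2 were called higher and 0 lower, and the neutrophil marker Ly6g had 0 UMIs in the members. Plasmacytoid dendritic cell genes, which mark the cells best known for making interferon alpha, summed to 6.88 CPM against 1.39 CPM and none of the 4 passed the filter.

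No endothelial gene of 9, matrix gene of 8, regenerating muscle gene of 8 or cell cycle gene of 16 was called higher or lower, and the medians of these lists were -0.15, 0.40, -0.59 and 0.69, beside 0.30 for all genes. Of the 6 MSC genes, markers that the study used for mesenchymal stem cells, 1 was called. That gene, Ly6e, at 1070 CPM against 515 CPM, is itself an interferon-stimulated gene. Red cell genes were lower in 4 of 4 cases, with a median log2 ratio of -1.66.

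**Figure D2:**
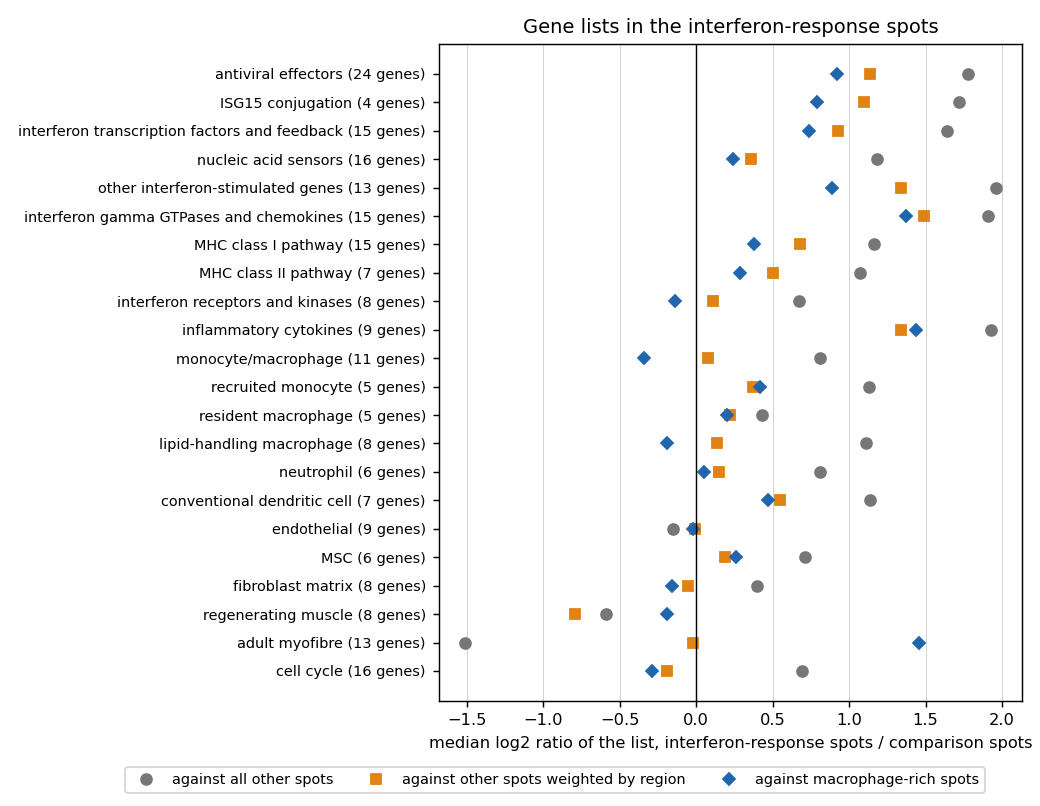
Median log2 ratio of each gene list in the interferon-response spots against all other spots (grey circles), against other spots weighted to the same regions (orange squares) and against macrophage-rich spots (blue diamonds), with the number of genes tested in brackets. The 6 interferon-stimulated lists at the top and the cytokines lie to the right of 0 for all 3 comparisons. So do the MHC class I and II, recruited monocyte, resident macrophage, neutrophil, conventional dendritic cell and MSC lists. The macrophage list, which chose the macrophage-rich spots, moves from 0.81 to 0.08 and -0.34 and the adult muscle list from -1.51 to -0.02 and 1.46.

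Set against the macrophage-rich spots, which had more macrophage RNA than the members, the interferon lists kept part of their difference. The median log2 ratio of 73 genes was 0.77, beside -0.06 for all 12163 genes tested, and 26 were higher and 0 lower, where 3.18% of all genes were higher and 0.781% lower. The 26 were 12 of 25 antiviral effectors, 6 of 13 other interferon-stimulated genes, 4 of 16 sensors, 3 of 15 transcription factors and feedback genes and 1 of 4 genes of Isg15 conjugation. Outside these lists, 12 of 17 interferon gamma GTPases and chemokines, 7 of 10 cytokines, 5 of 6 adipocyte genes and 12 of 13 adult muscle genes were also higher. The macrophage-rich spots are non-members, so their marker level was held below the threshold by construction. Their level of the macrophage list was high by construction too.

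The 10 genes with the largest ratio to the macrophage-rich spots mixed interferon genes with genes of other cells. Cxcl10, Ccl4, Usp18 and Oasl1 belong to the interferon and cytokine lists. Cfd, the complement factor D gene of adipocytes, was at 147 CPM against 12.2 CPM, and Hp, Scd1, Apod, Tuba8 and Ppp1r3c had ratios between 4.14 and 5.29. Cfd was seen in 20.3% of the members and was at 139 CPM in all other spots, so the macrophage-rich spots were low in it against both other sets. At the other end, Cd33, a sialic acid receptor of myeloid cells, was at 16.2 CPM against 36.1 CPM, and the chemokine receptor gene Cxcr4 at 70.7 CPM against 135 CPM.

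The level of the interferon genes outside the rule followed the score in steps. Their sum was 2575 CPM in the other spots with no marker UMI, 3589 and 4794 CPM in the other spots with lower and with higher scores above 0, and 6381, 7887 and 11816 CPM in the members of the lowest, middle and highest scores. The macrophage list went from 5686 through 10043, 11534, 13992 and 14291 to 15063 CPM over the same steps. Among the 3 groups of members the macrophage sums thus lay in a narrow range, and the interferon sums in a wider one. Other cell lists rose over these groups. Recruited monocyte genes were at 633, 758 and 1107 CPM, NK cell genes at 34.1, 54.5 and 107 CPM and T cell genes at 23.3, 37.2 and 59.6 CPM. Cell cycle genes were at 1090, 1100 and 1094 CPM, and adult muscle genes at 39365, 27067 and 28820 CPM. What these cells added to the interferon steps was not tested. Interferon gamma GTPases and chemokines went from 147, 146 and 193 CPM in the other spots to 296, 374 and 1279 CPM in the members. Per member this list was skewed, with a median of 391 CPM, quartiles of 235 and 708 CPM and a highest value of 9252 CPM. A few spots can thus raise its sum. The 35 members with 1 to 3 marker UMIs, which were shallow with a median of 6680 UMIs, had 5538 CPM of the interferon lists.

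**Figure D3:**
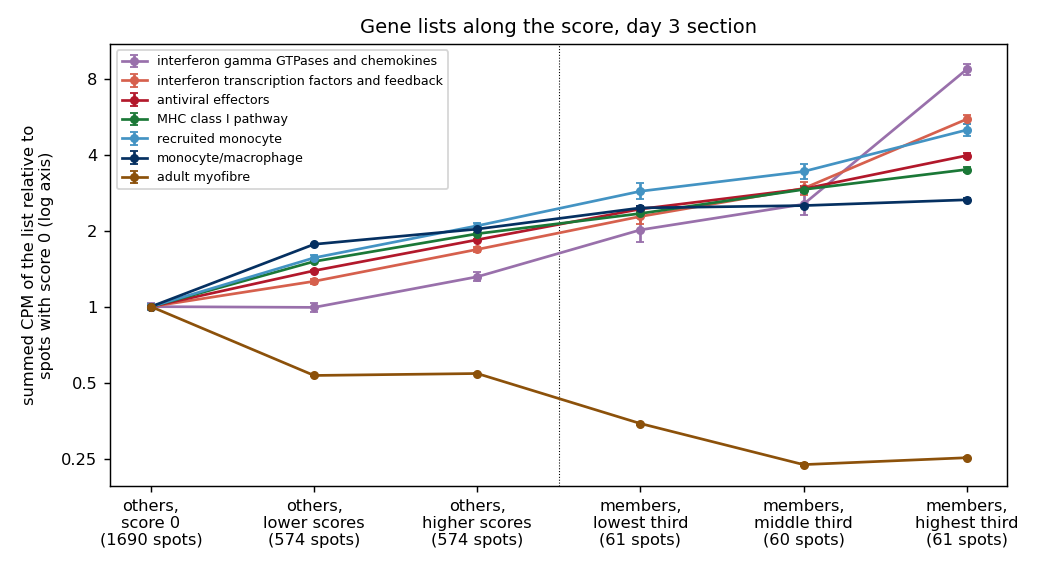
Summed CPM of 7 gene lists, relative to other spots with a score of 0 and on a log axis, in 3 groups of other spots and 3 groups of members ordered by score, with 95% counting intervals. The macrophage list flattens among the members while interferon gamma GTPases and chemokines reach 1279 CPM at the highest scores, and adult muscle genes go from 114327 CPM at the left to 28820 CPM at the right. Recruited monocyte genes rise among the members, from 633 to 1107 CPM.

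Across the 182 members the Spearman correlation with the score was 0.56 for the interferon lists outside the rule, 0.62 for transcription factors and feedback genes and 0.65 for interferon gamma GTPases and chemokines. It was 0.35 for recruited monocyte genes, 0.08 for the macrophage list, -0.13 for adult muscle genes and 0.10 for total UMIs. The interferon lists outside the rule themselves had correlations of 0.50 with the macrophage list, 0.68 with recruited monocyte genes and -0.59 with adult muscle genes across the members, so they varied with what else a spot held. Spots of 1 section share a library and their UMI total enters both axes, so these values are descriptions.

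**Figure D4:**
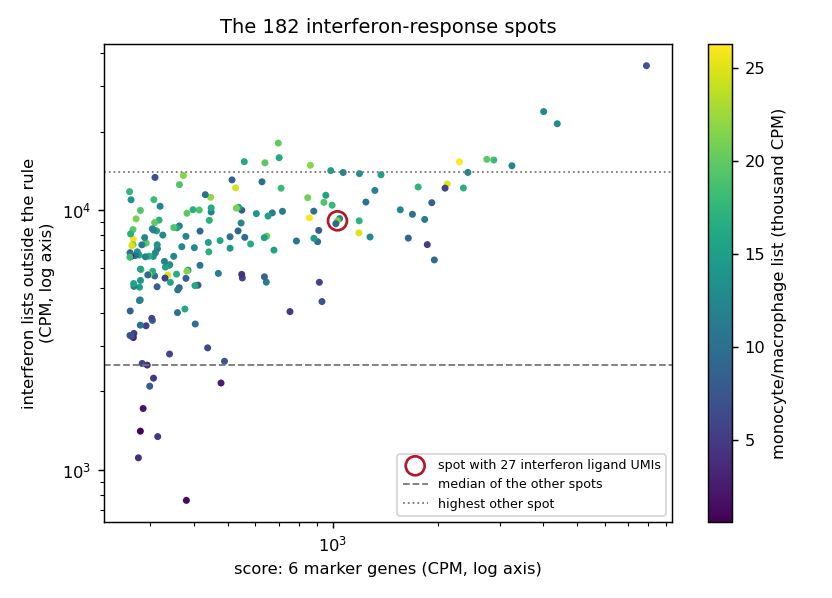
Each of the 182 interferon-response spots by its score (6 markers, CPM, log axis) and by the interferon lists outside the rule (CPM, log axis), coloured by the macrophage list. Spots lie mostly above the median of the other spots (dashed line at 2519 CPM), 13 lie above the highest other spot (dotted line at 13980 CPM), and the ringed spot is the one that held 27 interferon ligand UMIs.

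Interferon ligands were nearly absent. The 19 ligand genes together had 28 UMIs in the members and 15 in the other spots, and 27 of the 28 came from a single member, chosen for description after its values were seen. That spot held 14 UMIs of Ifnb1 (interferon beta), 12 of Ifna2 and 1 of Ifna16, so the members without it held 1 ligand UMI, of Ifng. Reads of interferon alpha genes can be shared among close copies of the family. In the other spots Ifnb1 had 7 UMIs in 6 spots, and it had 0 UMIs in the sections of days 0, 1 and 7.

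The spot with the ligand UMIs was deep, at 43636 UMIs, and its score of 1031 CPM ranked 29th among the members. It held 95 UMIs of Cxcl10 (2177 CPM, against 138 CPM in the remaining members), 40 of Ccl4 (917 against 39.3 CPM), 19 of Il1b, 17 of Cd83, an activation marker of dendritic cells and macrophages, and 6 of Il10. Genes downstream of interferon were mixed in this spot. Ifit3 had 14 UMIs where 6.59 were expected at the level of the remaining members, Ifit1 had 10 where 3.67 were expected, Socs1 had 8 where 0.875 were expected and Rsad2 had 9 where 6.78 were expected. Irf7 had 9 UMIs (206 CPM, against 345 CPM in the remaining members), Usp18 had 1 UMI and Ifit2 had 0. Siglech, which marks plasmacytoid dendritic cells, had 0 UMIs.

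The members concentrated in certain regions of the section. Spots were grouped into 8 regions with all listed genes left out of the clustering, and the regions are called by number and leading genes. Region 5, led by Spp1, Adam8 and Slfn4, held 81 members among 361 spots (22.4%, 18.2 to 27.1), and region 3, led by Mest, Myog and Dclk1, with the myoblast fusion genes Mymk and Mymx among its leading genes, held 69 among 458 (15.1%, 11.9 to 18.7). Region 5 thus held 44.5% of the members and 12.0% of the spots, and region 3 held 37.9% and 15.2%. Region 1, the largest, with 996 spots led by Fbxl22 and Mmp3, held 3 members (0.301%), and region 8, with 36 spots, held 0, with an interval that reaches 9.74%. Slfn4, a leading gene of region 5, was the unlisted gene with the largest ratio in the members, so this region was not wholly independent of the interferon genes.

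**Figure D5:**
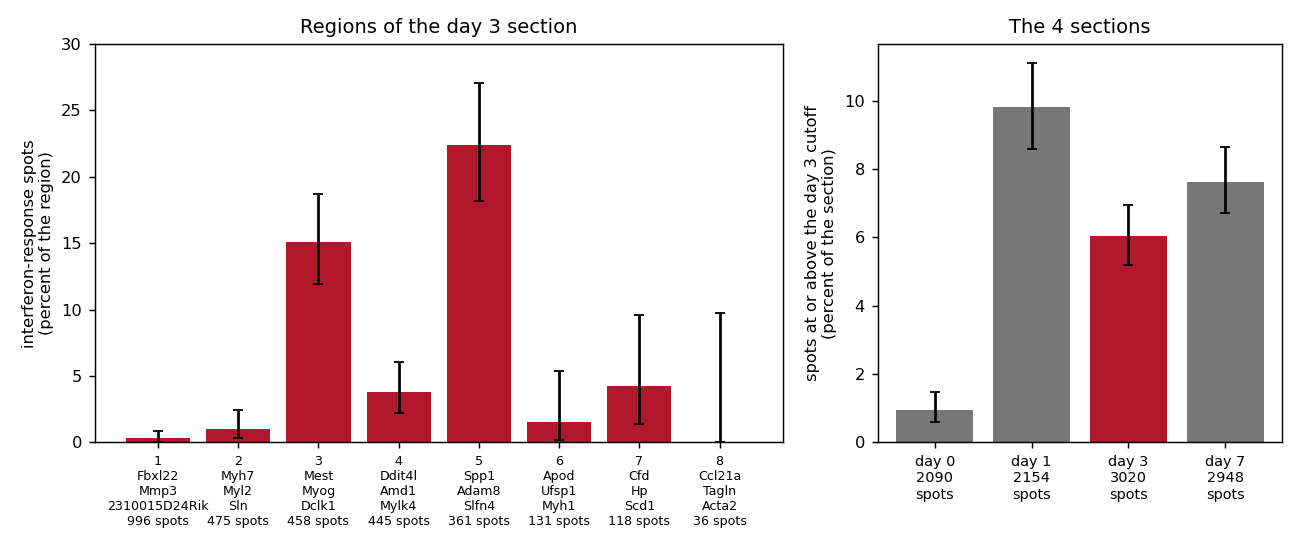
Left, percent of the spots of each region of the day 3 section that are interferon-response spots, with the 3 leading genes of the region; right, percent of the spots of each section at or above the day 3 cutoff. Bars are 95% exact binomial intervals; regions 5 and 3 reach 22.4% and 15.1%, and day 0 is lowest with 0.957%.

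Within each of these regions, the members also had more interferon RNA than the other spots of the region. In region 5, the interferon lists outside the rule were at 10796 CPM in the members and 5826 CPM in its other spots, with 41 of 73 genes higher and 0 lower, beside 1.64% of all genes higher and 0.855% lower. In region 3 they were at 8112 and 4597 CPM, again with 41 of 73 higher and 0 lower, beside 1.56% and 1.11% of all genes. Cxcl10 was at 237 CPM against 11.1 CPM in region 5 and 116 CPM against 5.83 CPM in region 3, and Irf7 was at 413 against 122 CPM and 342 against 114 CPM. The macrophage list had median log2 ratios of 0.01 and 0.14 in regions 5 and 3, beside -0.02 and -0.03 for all genes, and regenerating muscle genes had -0.50 and -1.07. Recruited monocyte genes had 0.39 and 0.36, and adult muscle genes 0.03 and 0.37. The monocyte gene Ly6c2 was at 293 against 125 CPM in region 5 and 176 against 87.3 CPM in region 3. The cells in the spots thus still differed within the regions, and what this added to the interferon difference was not tested.

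The other spots were also weighted to the regional makeup of the members. The 72 interferon genes had a median log2 ratio of 1.09, with 38 higher and 0 lower, beside 1.22% of all genes higher and 0.608% lower. Interferon gamma GTPases and chemokines were higher in 13 of 15 cases. The macrophage and adult muscle lists had medians of 0.08 and -0.02, with 0 genes called in either. MHC class I genes were higher in 2 of 15 cases, with a median log2 ratio of 0.68. Lists of other cells still differed under this weighting, with adipocyte genes higher in 5 of 7 cases (median log2 ratio 1.14), recruited monocyte genes in 2 of 5 (0.37), NK cell genes in 1 of 3 (0.99), Schwann cell genes in 1 of 2 (1.29) and the 1 T cell gene tested (2.22), beside -0.02 for all genes. The T cell gene, Trbc2, passed the filter only through its level in the members. The part of these lists in the interferon result was not tested.

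The same cutoff was applied to the other sections, which the rule did not use. It was passed by 20 of 2090 uninjured spots (0.957%, 0.585 to 1.47), by 211 of 2154 spots of the day 1 section (9.80%, 8.57 to 11.1) and by 225 of 2948 spots of the day 7 section (7.63%, 6.70 to 8.65). The sections differed in depth, with medians of 21110, 7470, 16114 and 12411 UMIs per spot at days 0, 1, 3 and 7, and a shallow spot passes on fewer UMIs. At day 1, 65 of the 211 spots (30.8%) passed on 1 marker UMI, against 5 members at day 3. Thinned to 2000 UMIs, the shares were 5.98%, 12.4%, 10.4% and 12.7% at days 0, 1, 3 and 7. At that depth 1 marker UMI is enough to pass, so the thinned shares count spots in which any marker was seen. Spots over the cutoff with 10 or more marker UMIs numbered 73 in the day 3 section, 37 in the day 7 section, 7 in the day 1 section and 0 in the uninjured section. These counts depend on depth, since the spots over the cutoff had medians of 17734, 8574, 4283 and 5730 UMIs in the same order. By score, spots above 1000 CPM numbered 30, 21, 22 and 0.

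The spots over the cutoff at days 1 and 7 also had more of the interferon genes outside the rule, at 5818 CPM against 1886 CPM in the rest of the day 1 section and 4091 CPM against 1783 CPM at day 7. At day 1 60 of 69 genes were higher, beside 16.3% of all genes, and at day 7 54 of 69, beside 3.14%. At day 0 the sums were 1067 and 903 CPM, a ratio of 1.18 (1.00 to 1.38). Macrophage genes were called higher in 11 of 11 cases at day 1 and in 0 of 11 at day 7. That contrast rests on the 2-fold threshold, since the day 7 spots over the cutoff also had more macrophage RNA. Their macrophage list summed to 3055 CPM, against 2062 CPM in the rest of that section. Its median log2 ratio was 0.65 there, beside 0.23 for all genes. The day 1 section had a larger macrophage median, 1.45, beside 0.40 for all genes. Cxcl10 was at 93.6 CPM against 4.09 CPM at day 7 and at 43.6 against 3.24 CPM at day 1.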

How the data were processed

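Sections of tibial muscle from uninjured mice and from mice at 1, 3 and 7 days after injury were measured by spatial transcriptome sequencing on barcoded arrays. The deposited files hold counts of UMIs per gene and spot, which the authors made with Space Ranger (version 1.2.0 per the file headers) against mm10 per the labels. They were used as deposited, without rounding, and spot positions were not used. How reads shared by similar genes were counted is not given in the sources used here.

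Spots with at least 2000 UMIs were kept. Counts were summed over groups of spots and scaled to CPM, and a gene under 3 UMIs in a group was entered at 3. Ratios have exact conditional binomial intervals, levels exact Poisson intervals and shares exact Clopper-Pearson intervals. UMIs of neighbouring spots are not independent, so intervals cover counting error only. Genes with at least 2 CPM over the spots compared were tested against the call rule of 2-fold. The members and the 35 gene lists (338 of 341 symbols found) were chosen with earlier results of these data known. Named genes were the markers, the 15 with the largest and 10 with the smallest ratio to other spots and the 10 at each end against macrophage-rich spots, all with at least 20 CPM, and genes of the lists. Regions came from Leiden clustering (Scanpy 1.11.5, leidenalg 0.10.2; 2000 variable genes, 30 components, 15 neighbours, resolution 0.5). TMM and size factors came from edgeR 4.0.16 and DESeq2 1.42.0, used for scaling alone. Thinned values are means of 20 draws. The comparison code was checked on simulated counts. Some listed genes are not reported here by name.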

Additional observations from a re-analysis of the deposited data

How the results depend on the processing

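No paired analysis was possible because there was 1 section per day. The interferon genes outside the rule stayed higher in every setting tried: the median log2 ratio of 1.73 became 1.54 and 2.12 with members at the 90th and 97th percentile, 1.48 with mitochondrial, haemoglobin and adult muscle genes taken out of the total, 1.39 with TMM and with DESeq2's size factors, 1.09 with region weighting, 0.77 against macrophage-rich spots and 1.52 without the 20 highest-scoring members. The macrophage median of 0.81 became 0.52 with the reduced total, 0.47 and 0.47 with the 2 scalings, 0.08 with region weighting, -0.34 against macrophage-rich spots and 0.96 as a mean over spots. The macrophage-rich spots had been chosen by that same list. The adult muscle median of -1.51 became -1.03 when a random part of the UMIs chose the members, -1.23 and -1.69 at the 90th and 97th percentile, -1.26 with the reduced total, -1.85 and -1.85 with the 2 scalings, -0.02 with region weighting, 1.46 against macrophage-rich spots, -1.46 without the 20 highest-scoring members and -1.56 without members of 1 to 3 marker UMIs. Genes called higher (731) numbered 326 with the reduced total, 247 and 247 with the scalings, 146 with region weighting, 387 against macrophage-rich spots, 1394 as a mean over spots and 393 at 10 CPM or more, and genes called lower (494) numbered 326 with the random part, 872 and 872, 73 and 95 with the scalings, region weighting and macrophage-rich spots. The leading region's share of members (44.5%) was 36.3% at resolution 1 and 78.0% with the 4 sections clustered together. Shares over the cutoff were 5.98%, 12.4% and 12.7% at days 0, 1 and 7 after thinning and 2.06%, 12.4% and 10.1% with the reduced total. After thinning, 1 marker UMI was enough to pass. Under region weighting the log2 ratios of Fbxl22, Ankrd2 and Hspb6 were 0.05, 0.08 and 0.04. The settings that left out the ligand spot, the 20 highest-scoring members or the members with 1 to 3 marker UMIs were chosen after seeing the data. The causes of these shifts were not tested. With few marker UMIs in a spot, membership near the threshold is set by counting.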

Other observations

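Adipocyte genes, which no comparison above was built on, differed between the 2 sets of spots that the members were compared with. Adipoq, Plin1 and Cidec, genes of fat cells, were at 9.63, 3.58 and 5.23 CPM in the interferon-response spots, 7.19, 3.11 and 4.02 CPM in the other spots and 0.718, 0.179 and 0.359 CPM in the macrophage-rich spots. Per spot, the adipocyte list ran from 0 through a median of 704 to 26206 CPM in the members, with quartiles of 449 and 1066 CPM, and 1 member held 269 of the 535 Cfd UMIs. Region 7, led by Cfd and Hp, held 5 of the 182 members. Cartilage genes summed to 74.0 CPM in the members and 52.5 CPM in the other spots, a ratio of 1.41 (1.24 to 1.60) with 0 of 3 genes called, and 183 of their 269 UMIs in the members were of Comp, which tendon also expresses. Bone genes summed to 17.9 and 18.7 CPM. Genes that define mature cartilage and bone were at or near 0 in the members, with 0 UMIs of Col2a1, 1 of Acan and 0 of Sp7, Ibsp and Bglap.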
